A study of Homo sapiens with 6 samples.

Results

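The RAB small GTPases are the largest family of regulators of vesicle transport. They were followed here on 6 Illumina HumanHT-12 v4 arrays of HEK-293 cells, a human embryonic kidney cell line. A probe belonged to the family when its annotated symbol was RAB, a number from 1 to 43 and at most 1 letter, so effectors, regulators and RAB-like genes stayed out. By this rule the family had 87 of the 47315 probes on the array, for 62 of 20044 named genes. Of these, 57 probes for 46 genes were tested. For these the detection p-value, which sets a probe against negative control beads, passed the limit of 0.05 in 3 or more of the 6 samples.

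The study overexpressed circANRIL, a circular RNA spliced from exons of the long non-coding RNA ANRIL, and asked how this changes cell function. The overexpressing cells were HEK293 with stable circANRIL overexpression (3 arrays), and the controls were HEK293 with stable pBI-CMV2 vector overexpression (3 arrays). Both groups carried the bicistronic vector pBI-CMV2, which also makes a green fluorescent protein, and a neomycin resistance vector, and both were selected with G418. The methods say that several lines were made per construct, but not which line an array holds or whether a line was 1 clone, so p-values measure the spread between these samples, which may in part be technical.

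A RAB protein is a switch that is active when bound to GTP and inactive when bound to GDP. Exchange factors load GTP and thereby place each RAB on its own membrane, GTPase-activating proteins (mostly with a TBC domain) switch it off, and escort proteins carry the prenylated, inactive form through the cytosol. Active RABs recruit effectors such as tethers, motors and sorting adaptors, and each RAB marks a step of traffic, for example RAB5 at early endosomes, RAB7 at late endosomes, RAB11 at recycling endosomes and RAB1 between endoplasmic reticulum and Golgi.

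Most RAB transcripts did not pass the test, and RAB38 stood out as higher in circANRIL cells. Levels are normalized log2 signals, and a difference is circANRIL minus vector control on that log2 scale, so 1 is a 2-fold change. At an adjusted p under 0.05 (limma with Benjamini-Hochberg adjustment over all 21191 tested probes of the array), 6 RAB probes were higher, those of RAB38, RAB9B, RAB39B, RAB32, RAB9A and RAB4B, and 2 were lower, those of RAB14 and RAB10. These 8 made up 14.0% of the tested RAB probes, against 17.7% called among all tested probes. The higher calls were 10.5% of RAB probes against 9.27% of all probes, and the lower calls were 3.51% against 8.44%. The higher calls include RAB39B, which passed the detection filter through the circANRIL arrays alone. The count of RAB calls was thus near the background of the array in total. RAB38, RAB9B and RAB14 were the 3 called with more than a 2-fold change, a class that held 4.61% of all tested probes. The median difference over the 57 RAB probes was 0.02, against -0.03 over all tested probes, but with median scaling in place of quantile normalization these were -0.15 and -0.13. That scaling moved the whole array down and gave 5 RAB probes higher and 7 lower, with 1418 higher and 2974 lower over the array, against 1965 and 1788 with quantile normalization.

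**Figure D1:**
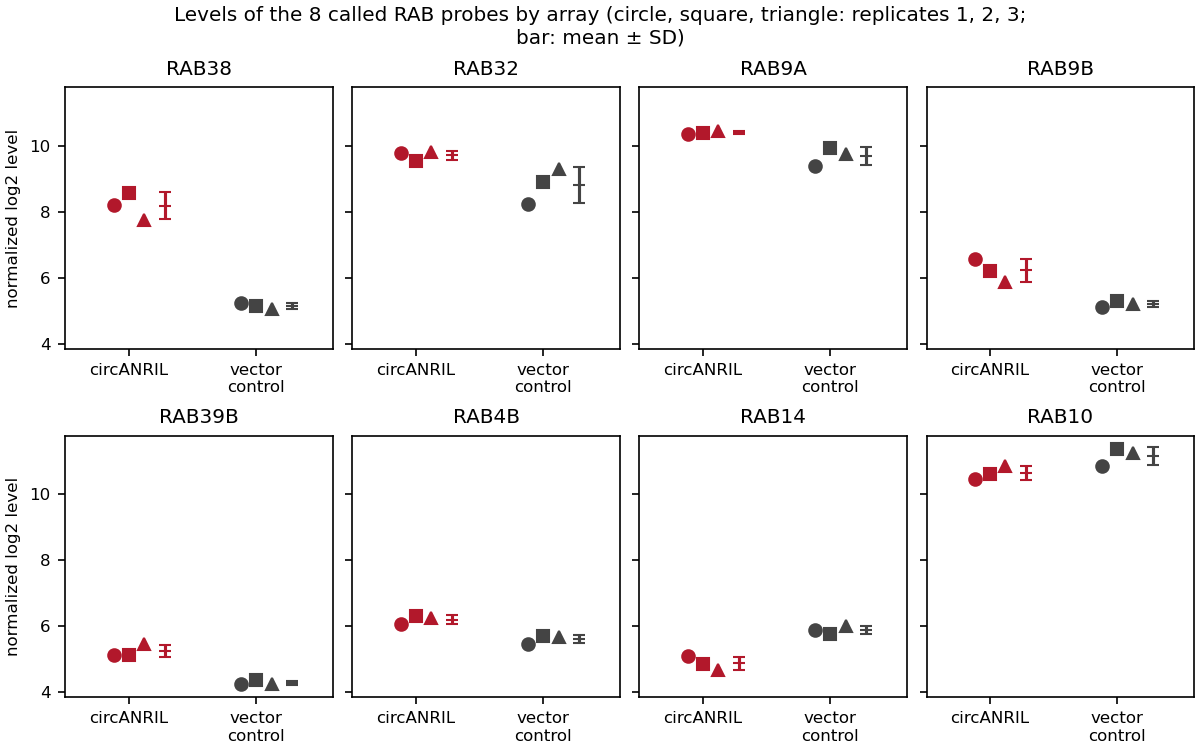
Normalized log2 level (vertical axis) of the 8 called RAB probes on each circANRIL array (red) and each vector control array (grey), with the mean and SD of the 3 arrays of a group. The groups are apart for every probe but RAB10, and RAB38 has the widest gap, with means of 8.19 and 5.13.

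RAB38 (gene at chr11:87803715-88175443 in GRCh38.p14) showed the biggest difference of the 57 tested probes. RAB38 delivers pigment enzymes to melanosomes and serves related organelles such as the lamellar bodies of the lung. Its log2 level was 8.22, 8.57 and 7.76 in the 3 circANRIL arrays, against 5.23, 5.14 and 5.04 in the 3 vector control arrays. Every circANRIL array lay far above every vector control array, and the vector control arrays were nearly alike. The signals as deposited, before normalization, were 281, 311 and 189 in circANRIL cells and 20.3, 20.1 and 18.9 in vector control cells. The difference was 3.05 (SE 0.22, adjusted p = 8.28e-08), an 8.28-fold higher level. It was called under all 15 other processings, with differences between 1.75 (log2 of the authors' value table) and 3.83 (signals floored at 16), so the size of the fold change rests on how dim signals are treated. In RNA from whole cultures, more cells with a transcript and more RNA per cell cannot be told apart.

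RAB32, the closest relative of RAB38, acts with it in the same transport step. Its gene lies on chromosome 6. RAB32 had log2 levels of 9.78, 9.54 and 9.81 in circANRIL cells, against 8.23, 8.90 and 9.30 in vector control cells. The circANRIL arrays were close together, while the vector control arrays spread widely, with replicate 1 lowest. The difference was 0.91 (SE 0.21, adjusted p = 0.0081), and it was 0.61 without vector control replicate 1. RAB29, which completes this subfamily and is known for its link to the kinase LRRK2, had 6.45, 6.23 and 6.64 in circANRIL cells and 6.12, 5.96 and 6.57 in vector control cells. Its groups overlapped, and its difference of 0.22 (95% confidence interval -0.23 to 0.68) was not called (adjusted p = 0.51).

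RAB32 and RAB38 are best known from pigment cells, so the markers of these cells were read beside them. Of 7 listed pigment cell markers 6 had a probe, and the enzyme DCT had none. TYR, TYRP1, MLANA and SOX10 were detected on no array. MITF and PMEL were detected on all 6 arrays and were not called, with differences of -0.20 and -0.06. The pigment enzymes TYR and TYRP1 were thus not above background in cells that carried more RAB38 and RAB32 transcript, while MITF and PMEL were detected in both groups.

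The exchange factor of RAB32 and RAB38 is BLOC-3, made of HPS1 and HPS4, and BLOC-1, BLOC-2 and the adaptor AP-3 work in the same route. Of 18 genes in this list 17 were tested, and 1 was higher and 2 were lower. HPS3, a subunit of BLOC-2, was higher by 0.62 (SE 0.19, adjusted p = 0.031), while SNAPIN (-0.73, SE 0.19, adjusted p = 0.014) and BLOC1S1 (-0.62, SE 0.17, adjusted p = 0.018), both subunits of BLOC-1, were lower. HPS1 had a difference of -0.39 (adjusted p = 0.20) and HPS4 one of 0.11 (adjusted p = 0.69), neither of them called. The median of the list was 0.07, against -0.03 over all tested probes. These calls were not firm: with median scaling none of the list was higher and 3 were lower, HPS3 was called in 1 of the 6 fits that leave out an array (without vector control replicate 3), BLOC1S1 in 4 (not without replicate 2 of either group) and SNAPIN in 5 (not without circANRIL replicate 3). ANKRD27, an effector that binds both RABs, had a difference of 0.10 (adjusted p = 0.76), and SGSM2, a GTPase-activating protein for them in vitro, one of -0.03 (adjusted p = 0.93).

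In the late endosome, lysosome and autophagy group, 3 of 10 tested probes were higher, against 9.27% of all tested probes, and no other had an unadjusted p under 0.05. Among the 3, RAB39B passed the detection filter through the circANRIL arrays alone, so its higher level was built into its entry to the test. All 3 are genes of the X chromosome, where 35.3% of the tested probes were higher. Place of action and chromosome cannot be told apart in this count. RAB9A carries mannose 6-phosphate receptors from late endosomes back to the trans-Golgi network. It had log2 levels of 10.38, 10.38 and 10.46 in circANRIL cells, against 9.41, 9.93 and 9.77 in vector control cells. The circANRIL arrays were nearly identical, and all of them lay above the vector control arrays. The difference was 0.70 (SE 0.15, adjusted p = 0.0047).

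RAB9B is the paralog of RAB9A. It had 6.59, 6.22 and 5.87 in circANRIL cells, against 5.13, 5.30 and 5.21 in vector control cells. Here the vector control arrays were close together and the circANRIL arrays spread, without overlap. The difference was 1.01 (SE 0.21, adjusted p = 0.0032).

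RAB39B (chrX:155258235-155264491) is a neuronal RAB whose loss causes X-linked intellectual disability with early parkinsonism. It had 5.13, 5.13 and 5.45 in circANRIL cells, against 4.25, 4.36 and 4.24 in vector control cells. The deposited signals were 20.2, 18.0 and 26.7 in circANRIL cells and -3.06, 1.31 and -4.49 in vector control cells, so the probe was detected on every circANRIL array and on no vector control array. It passed the detection filter through the circANRIL arrays alone, so a higher level was built into its entry to the test, and it was not tested where detection on all 6 arrays was required. Since the control level is only a bound, RAB39B was at least 1.52-fold higher. This bound sets the circANRIL mean against the lowest signal that counts as detected on each vector control array, and it was not itself tested. The limma adjusted p of 0.0006 belongs to the log2 difference of 0.96, which uses control values below detection. Its paralog RAB39A was not tested.

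The other tested probes of this group were not called. RAB7A, the general RAB of late endosomes and lysosomes, had 10.74, 10.39 and 10.56 in circANRIL cells and 10.74, 10.84 and 10.64 in vector control cells, a difference of -0.18 (95% confidence interval -0.47 to 0.11). RAB12, which acts between recycling endosomes and lysosomes, had a difference of -0.23. The 5 tested probes of RAB24, a RAB of late autophagosomes, ranged between -0.19 and 0.21.

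**Figure D2:**
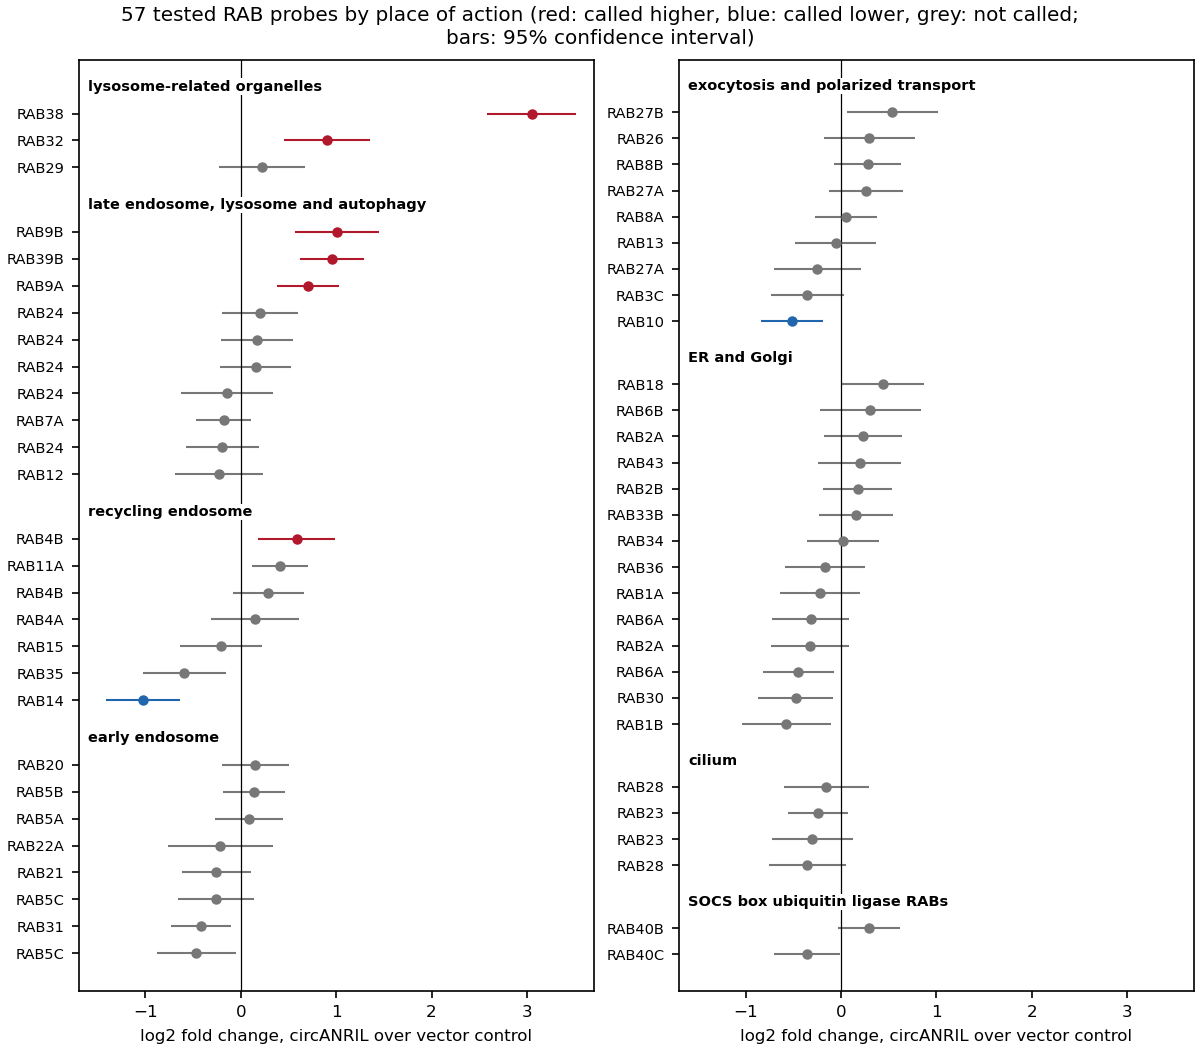
Log2 fold change of each of the 57 tested RAB probes with its 95% confidence interval (horizontal axis), grouped by place of action, with called probes in red (higher) and blue (lower). The higher probes are those of RAB38, RAB32, RAB4B and the X-linked RAB9A, RAB9B and RAB39B. The 14 probes of the ER and Golgi group hold no call, against 17.7% called among all tested probes.

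Because RAB9A, RAB9B and RAB39B share a chromosome, the X chromosome was read as a whole. The family had 6 genes there, of which RAB33A, RAB40A and RAB41 were not tested, and all 3 tested genes were higher, RAB39B with the limit given above. Of 604 tested X-linked probes, 213 (35.3%) were higher and 15 were lower, against 9.27% higher over the array. The median difference of X-linked probes was 0.30, and it was 0.18 without vector control replicate 1 and 0.17 with median scaling. So a higher level was common among X-linked probes in general, and the part of this shift in the RAB values was not tested. Without the X-linked genes, 3 of 54 RAB probes were higher and the median over the family was -0.10. Over the array, 1965 of 21191 tested probes were higher, and 213 of these were among the 604 X-linked ones. The share and the median of the array without X-linked probes were not computed.

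Autosomes were shifted too, with medians between -0.30 (chromosome 13) and 0.16 (chromosome 7). Chromosome 11, which carries RAB38, had a median of -0.23 over 903 tested probes, with 37 higher and 155 lower. RAB38 thus moved against its chromosome. The other tested RAB probes of chromosome 11, those of RAB1B, RAB30 and RAB6A (2 probes), all had negative differences between -0.57 and -0.32, none of them called. Chromosome 9, with RAB14, had a median of -0.14, and chromosome 6, with RAB32, one of -0.08.

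**Figure D3:**
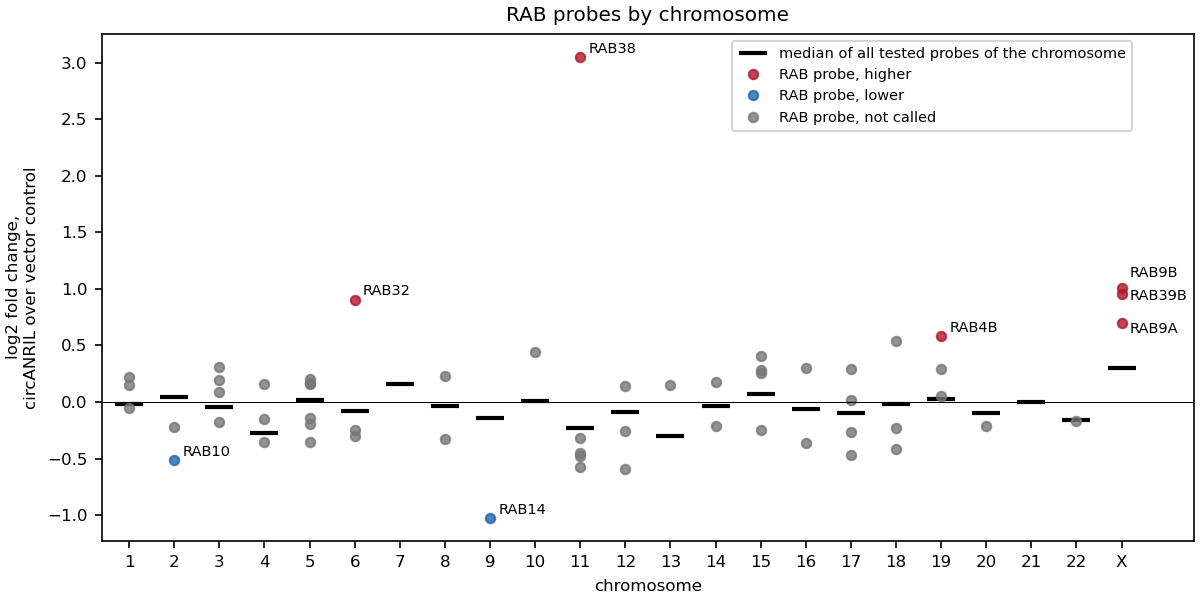
Log2 fold change of the tested RAB probes (points, vertical axis) by chromosome, with the median of all tested probes of that chromosome as a black bar. The 3 X-linked probes lie above the X median of 0.30, while RAB38 lies far above the chromosome 11 median of -0.23.

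To show the sequence in front of these genes, the 250 bases before the RefSeq start of 4 called genes (assembly GRCh38.p14) follow, for the X-linked pair, for RAB32 and for RAB14, which was lower. Capitals mark the GC box GGGCGG or its reverse complement CCGCCC, a binding motif of SP1 and related factors that is typical of housekeeping promoters.
RAB9A, chrX:13688878-13689127, plus strand: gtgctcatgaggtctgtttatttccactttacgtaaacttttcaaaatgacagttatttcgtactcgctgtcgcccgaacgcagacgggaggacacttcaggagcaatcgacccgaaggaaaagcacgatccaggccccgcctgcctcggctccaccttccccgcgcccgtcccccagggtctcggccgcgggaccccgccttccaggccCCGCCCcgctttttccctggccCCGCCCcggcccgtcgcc
RAB9B, chrX:103832258-103832507, minus strand: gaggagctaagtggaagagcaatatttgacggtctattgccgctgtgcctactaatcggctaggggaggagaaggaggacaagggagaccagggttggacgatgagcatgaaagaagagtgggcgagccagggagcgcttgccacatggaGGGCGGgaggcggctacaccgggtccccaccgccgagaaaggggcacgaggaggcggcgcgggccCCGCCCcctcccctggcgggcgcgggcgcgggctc
RAB32, chr6:146543583-146543832, plus strand: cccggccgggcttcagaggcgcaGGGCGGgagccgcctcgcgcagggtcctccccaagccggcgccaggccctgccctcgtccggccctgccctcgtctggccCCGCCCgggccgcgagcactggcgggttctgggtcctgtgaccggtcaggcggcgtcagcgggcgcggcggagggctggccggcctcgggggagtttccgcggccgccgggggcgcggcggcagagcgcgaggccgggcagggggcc
RAB14, chr9:121201870-121202119, minus strand: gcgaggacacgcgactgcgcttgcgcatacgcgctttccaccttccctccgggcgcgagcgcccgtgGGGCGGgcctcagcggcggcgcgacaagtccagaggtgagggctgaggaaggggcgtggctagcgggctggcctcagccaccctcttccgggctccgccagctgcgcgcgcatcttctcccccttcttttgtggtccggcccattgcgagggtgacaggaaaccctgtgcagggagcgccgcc
RAB9A, RAB9B and RAB32 hold 2 GC boxes each and RAB14 holds 1. The RAB32 window has 36 CpG dinucleotides, against 28 for RAB14, 25 for RAB9A and 21 for RAB9B. On either strand, GGGCGG stood in 42.6% of the 35116 windows of this length in the table and in 51 of 71 RAB windows (71.8%). No window was found for RAB38 or RAB39B, both called higher. The motif stood in all windows found for the other called genes, 4 of genes called higher (RAB4B the fourth) and 2 of genes called lower, and in 37 of 50 windows of RAB genes not called (74.0%). Among windows of RAB genes that were not tested it stood in 8 of 15 (53.3%), with a median of 8 CpG dinucleotides, against 19 for RAB genes not called.

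Among the RABs of recycling endosomes, 7 probes were tested, and 1 was higher and 1 was lower, against 9.27% higher and 8.44% lower among all tested probes. RAB14, which works between early endosomes, recycling endosomes and the Golgi, was the clearest of the lower calls. Its log2 level was 5.08, 4.86 and 4.67 in circANRIL cells, against 5.90, 5.76 and 6.01 in vector control cells. The groups did not overlap, but the probe was dim: the deposited signals were 19.0, 12.2 and 9.06 in circANRIL cells and 41.5, 40.2 and 54.7 in vector control cells, and it was detected on 2 of 3 circANRIL arrays. The difference was -1.02 (SE 0.18, adjusted p = 0.0012).

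RAB4B (chr19:40778247-40796942), a RAB of fast recycling, was measured by 2 probes. The first gave 6.06, 6.30 and 6.24 in circANRIL cells, against 5.46, 5.71 and 5.67 in vector control cells, a difference of 0.58 (SE 0.19, adjusted p = 0.043) without overlap. This call was lost in each of the 6 fits that leave out an array (0.51 to 0.66, adjusted p 0.060 to 0.15). The second probe, detected on 3 circANRIL arrays and 1 vector control array, gave 0.29 (adjusted p = 0.27). The paralog RAB4A had 7.84, 7.56 and 7.14 in circANRIL cells and 7.34, 7.09 and 7.66 in vector control cells, which overlap, with a difference of 0.15 (adjusted p = 0.68).

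RAB11A and RAB35 lay just outside the threshold. RAB11A, the main RAB of slow recycling, had 10.45, 10.32 and 10.49 in circANRIL cells and 10.03, 10.17 and 9.84 in vector control cells, a difference of 0.41 (adjusted p = 0.053). RAB35, which also acts in cytokinesis, had 7.75, 7.49 and 7.14 in circANRIL cells and 8.33, 8.05 and 7.77 in vector control cells, a difference of -0.59 (adjusted p = 0.057). In both the groups did not overlap. RAB15 had a difference of -0.21 and was not called.

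In the exocytosis and polarized transport group, 1 of 9 tested probes was lower, against 8.44% of all tested probes, and the others were not called. RAB10 (chr2:26033285-26137454) carries GLUT4 vesicles and basolateral cargo to the plasma membrane. It had 10.45, 10.61 and 10.87 in circANRIL cells, against 10.86, 11.36 and 11.25 in vector control cells. The groups overlapped, since circANRIL replicate 3 was slightly above vector control replicate 1. The difference was -0.51 (SE 0.15, adjusted p = 0.029). It was no longer called without circANRIL replicate 1 (-0.42) or 2 (-0.50), or without vector control replicate 2 (-0.41) or 3 (-0.47), with adjusted p between 0.080 and 0.11. RAB8A, which shares exchange factors and effectors with RAB10, had 9.80, 9.78 and 9.79 in circANRIL cells and 9.45, 9.82 and 9.94 in vector control cells, a difference of 0.05 (95% confidence interval -0.27 to 0.38). RAB27B, of regulated secretion, had a difference of 0.54 (adjusted p = 0.11), while both tested probes of RAB27A, its paralog, differed in sign (0.26 and -0.25).

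No probe was called by limma in the remaining groups, against 17.7% of all tested probes. At an unadjusted p under 0.05 in limma, the ER and Golgi group had 1 probe with a positive and 3 with a negative difference. The early endosome group had 2 negative ones, the SOCS box group 1 and the cilium group 0. No share over all tested probes stands beside these unadjusted counts. The methods' t-test called no probe of these groups after adjustment, while median scaling called RAB1B, RAB6A, RAB31 and RAB40C lower. The 14 probes of the ER and Golgi group had differences between -0.57 and 0.44 with a median of -0.08. Among them RAB1B, which acts in transport from the endoplasmic reticulum to the Golgi, had 5.14, 5.65 and 4.69 in circANRIL cells and 5.71, 5.70 and 5.79 in vector control cells, a difference of -0.57 (adjusted p = 0.084). Its circANRIL arrays spread widely and all lay below the vector control arrays. The 8 probes of the early endosome group had a median of -0.23, with differences between -0.46 (the second probe of RAB5C) and 0.15 (RAB20). RAB5A, the main RAB of early endosome fusion, had a difference of 0.09 (95% confidence interval -0.27 to 0.44). The 4 probes of RAB23 and RAB28, which act at the cilium, were all negative, between -0.35 and -0.15, and the SOCS box members RAB40B and RAB40C gave 0.29 and -0.36.

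Over the whole family 29 differences were positive and 28 negative. In 17 of 57 probes (29.8%) the arrays of the groups did not overlap, 8 of them higher and 9 lower in circANRIL cells, against 35.7% of all tested probes. Of the 49 probes not called, 10 had an unadjusted p under 0.05: RAB11A, RAB18 and RAB27B with positive differences, and RAB1B, RAB5C, RAB6A, RAB30, RAB31, RAB35 and RAB40C with negative ones. The matching share over all tested probes is not given here, so this count is not read as a result about the family. On the normalized scale the 95% confidence interval of 46 of the 49 lay within -1 and 1, but for 6 alone it lay within -0.5 and 0.5. For dim probes the offset added to the signals shrinks differences, so there a 2-fold change in transcript is not excluded. The dim RAB14 probe, for example, moved from -1.02 to -0.56 with an offset of 50. Of the 8 genes with several tested probes, 5 had probes of the same sign and 3 (RAB2A, RAB24 and RAB27A) had probes of opposite sign.

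The genes that were not tested were RAB3A, RAB3B, RAB3D, RAB6C, RAB6D, RAB7B, RAB11B, RAB17, RAB19, RAB25, RAB33A, RAB37, RAB39A, RAB40A, RAB41 and RAB42. They include the RAB3 members of synaptic vesicles other than RAB3C, and the epithelial RAB17 and RAB25. In all, 49 of the 87 probes were detected on all 6 arrays and 20 on none.

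The regulators of the family were read with 1 probe a gene. Of 8 escort and prenylation genes 6 were tested and none was called by limma or by the methods' t-test at an adjusted p under 0.05, with 1 gene (RABGGTA) at an unadjusted p under 0.05 in limma and none in the methods' t-test, and a median difference of 0.07. GDI2, which extracts inactive RABs from membranes, had 0.06, and RABGGTB, a subunit of the enzyme that attaches the lipid, had -0.06. RABGGTA, the other subunit, had -0.53 (adjusted p = 0.11), and it was called lower without vector control replicate 2 (-0.74, adjusted p = 0.037).

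Of 39 exchange factors 31 were tested, with 4 higher, 1 lower and a median of 0.10, but 2 were higher and 3 lower with median scaling. RAB3GAP2 is part of the complex that activates RAB18. It averaged 8.95 ± 0.06 in circANRIL cells and 8.05 ± 0.13 in vector control cells (SD, n = 3 each), a difference of 0.90 (SE 0.16, adjusted p = 0.0012), while RAB18 itself had 0.44 (adjusted p = 0.14). DENND4A (0.74, adjusted p = 0.018) and DENND4B (-0.73, adjusted p = 0.0070), both exchange factors of RAB10, were called in opposite directions. RAB3IP, also called Rabin8, which activates RAB8, was higher by 0.57 (adjusted p = 0.019), and so was C9orf72, whose complex acts on RAB8A and RAB39B, by 0.56 (adjusted p = 0.044). The C9orf72 call was lost whichever array was left out, and its other tested probes, between -0.07 and 0.30, were not called. DENND4A was not called without circANRIL replicate 2 or 3, and RAB3IP was not called without circANRIL replicate 1 or 2. RAB3GAP2 and DENND4B were called in all 6 fits that leave out an array. The count of higher genes fell to 1 without circANRIL replicate 2 and to 2 without circANRIL replicate 3, and the count of lower genes was 2 without vector control replicate 2 or 3.

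Of 34 TBC GTPase-activating proteins 30 were tested, with 3 higher, 3 lower and a median of -0.01, and 3 were higher and 5 lower with median scaling. TBC1D8B, on the X chromosome, had 7.37, 7.36 and 7.72 in circANRIL cells, against 5.72, 6.20 and 6.30 in vector control cells, a difference of 1.41 (SE 0.21, adjusted p = 0.0003). TBC1D16, which acts on RAB4A, was higher by 1.19 (adjusted p = 0.0012) and EVI5L by 0.91 (adjusted p = 0.0092). TBC1D4, the AKT substrate that holds RAB10, RAB14 and RAB8A inactive, had 7.95, 7.93 and 7.72 in circANRIL cells, against 8.69, 8.46 and 8.60 in vector control cells, a difference of -0.72 (SE 0.17, adjusted p = 0.0076). TBC1D14, which acts in autophagy, was lower (-0.59, adjusted p = 0.026), as was TBC1D24 (-0.65, adjusted p = 0.033), but of the 6 fits that leave out an array TBC1D14 was called in 2 and TBC1D24 in 1. EVI5L was not called without circANRIL replicate 2. TBC1D4 was the 1 gene called lower without circANRIL replicate 2 or without circANRIL replicate 3.

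Of 43 effectors 31 were tested, with 3 higher, 2 lower and a median of 0.06, and 3 were higher and 3 lower with median scaling. SYTL4, or granuphilin, which docks secretory granules through RAB27A, and OCRL, a lipid phosphatase recruited by several RABs, both lie on the X chromosome and were higher by 1.16 (adjusted p = 0.0006) and 0.85 (adjusted p = 0.0021). MYO5C, a myosin V motor of secretory vesicles, had 8.50, 8.46 and 8.43 in circANRIL cells, against 7.29, 7.35 and 4.40 in vector control cells. Vector control replicate 3 stood far below the other arrays and was the 1 array on which the probe was not detected. The difference was 2.11 (SE 0.51, adjusted p = 0.0093), and it was 1.13 without that array (adjusted p = 0.0005). MICALL1, a tubular recycling endosome protein that binds RAB8A and RAB35, was lower (-0.98, adjusted p = 0.0049), as was MICAL1 (-0.65, adjusted p = 0.031), which oxidizes actin. MICAL1 was called in 1 of the 6 fits that leave out an array (without circANRIL replicate 1).

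**Figure D4:**
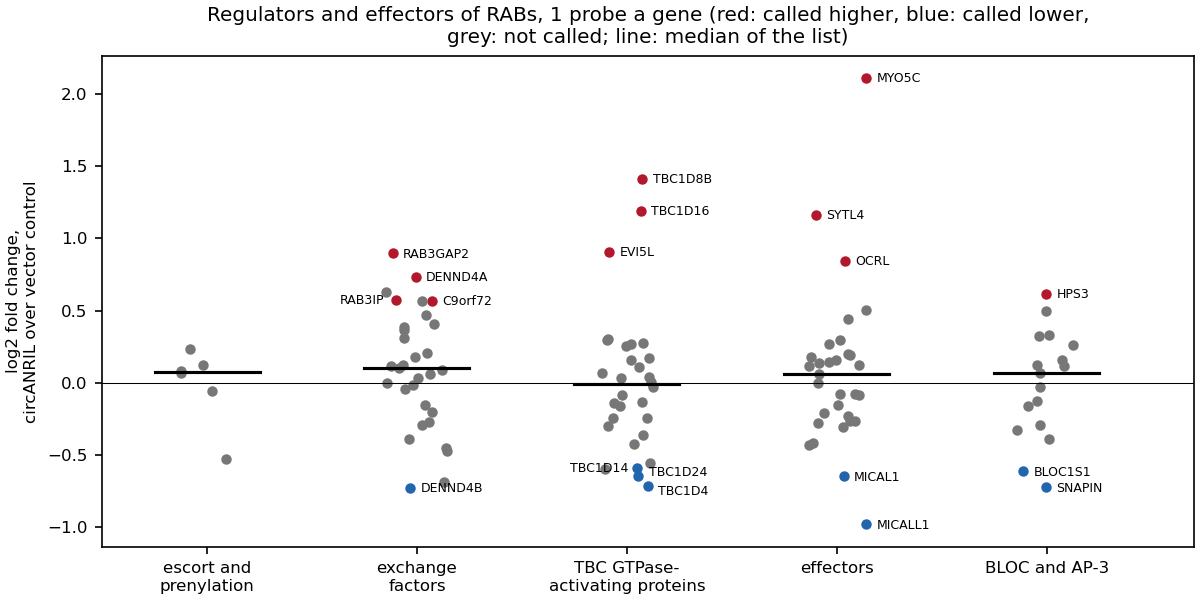
Log2 fold change (vertical axis) of the tested regulators and effectors of RABs, 1 probe a gene, in 5 lists, with called genes named and the median of each list as a line. Calls stand on both sides of 0 in 4 lists, the medians lie between -0.01 and 0.10 (between -0.17 and -0.04 with median scaling), and the escort list holds no call.

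Set against the array, the lists had 16.1% called among exchange factors and among effectors, 20.0% among TBC proteins and 17.6% in the BLOC and AP-3 list, beside 17.7% of all tested probes. The share of calls in each was thus near the background. After adjustment the methods' t-test called 3 exchange factors and no gene of the other lists, where at an unadjusted p under 0.05 it had 5 higher and 5 lower TBC proteins, 2 higher and 5 lower effectors and 3 higher and 3 lower BLOC and AP-3 genes. No share over all tested probes stands beside these unadjusted counts. With median scaling the medians of these 4 lists and of the escort list were all negative (-0.04 for exchange factors, -0.08 for effectors, -0.17 for TBC proteins, -0.13 for BLOC and AP-3 and -0.09 for escort genes), beside the -0.13 of all probes.

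The arrays as a whole detected between 43.4% and 46.8% of probes and correlated with r between 0.980 and 0.990 within a group and between 0.946 and 0.968 across groups. Among markers of the HEK-293 line, VIM was detected on all arrays and not called (12.04 in circANRIL cells and 11.89 in vector control cells), KRT8 was higher by 2.30 (adjusted p = 6.34e-05), PAX2 was detected on no array, and LHX1 and KRT18 on at most 2. KRT8 was not called with signals floored at 16 or with the methods' t-test. Of 6 markers of blood, endothelium and liver, PTPRC, CD3E, PECAM1 and CDH5 were detected on no array. For ALB and CD14 the brighter probe was dim (mean log2 levels of 5.16 and 5.57), detected on all 6 arrays and not called. The other probe of each was detected on no array. No probe was read as circANRIL itself, since a circular RNA cannot be matched through the symbol of its host gene, so the labels were not checked by it.

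**Figure D5:**
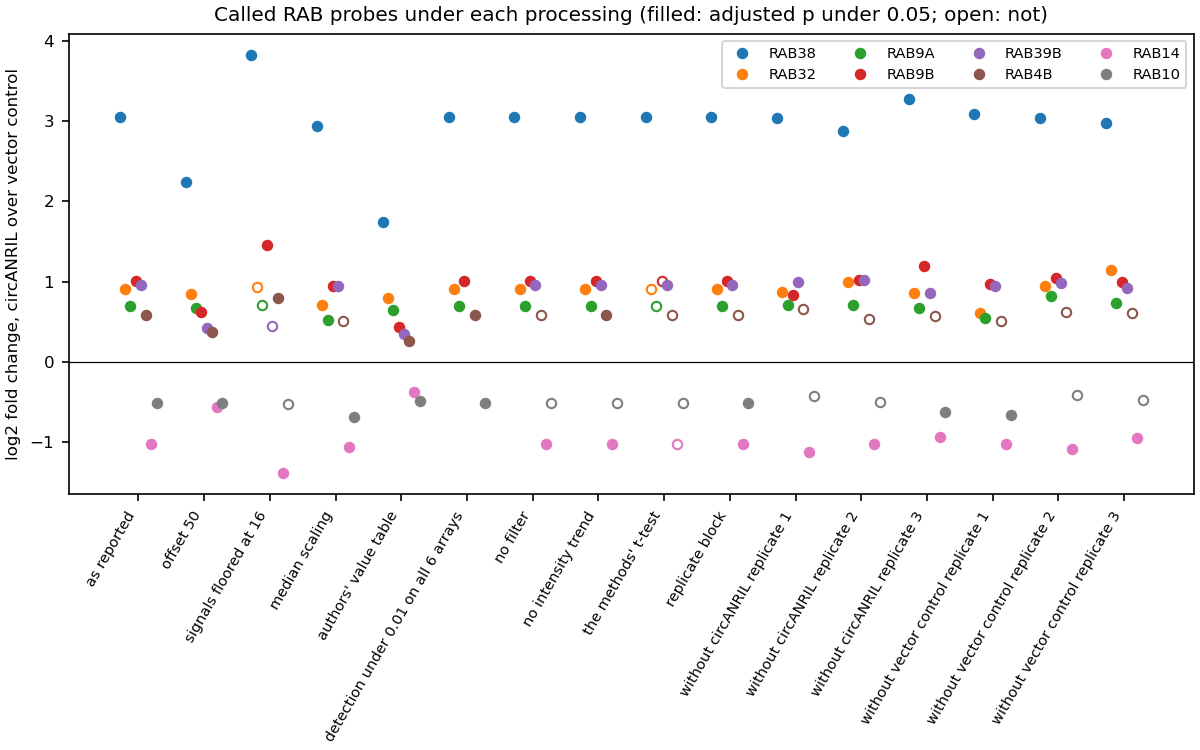
Log2 fold change (vertical axis) of the 8 called RAB probes as reported and under each of 15 other processings, with filled points where the adjusted p was under 0.05 and open points where it was not. RAB38 is filled in every column, with values between 1.75 and 3.83, and RAB4B and RAB10 are open in many.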

How the data were processed

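The authors processed the bead-level data in GenomeStudio 2011.1 and deposited a background-subtracted intensity and a detection p-value per probe and array, not normalized between arrays, and a value table of normalized intensity. From the deposited signals, log2 levels were computed with neqc in limma 3.58.1 (R 4.3.3), which uses the detection p-values for the background, adds an offset of 16 and quantile-normalizes. The 21191 of 47315 probes that passed the detection limit of 0.05 in 3 or more of the 6 samples were fitted with lmFit and eBayes with an intensity trend (4 residual degrees of freedom), 3 circANRIL against 3 vector control arrays, with Benjamini-Hochberg adjustment over all of them and a two-sided threshold of 0.05. The number of arrays limits the precision. The script was tested on simulated data. Probe symbols came from GEO's platform annotation, updated by gene identifier (30071 of 30110 probes with 1 symbol). Promoter windows came from RefSeq.

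The members and lists were chosen with earlier results of these data known. The text names with values each called RAB probe, other probes of its gene, its closest paralogs and up to 3 called genes per list and direction (4 among exchange factors). Uncalled RABs and regulators named beside them were chosen after their values were seen. Groups by place of action are background knowledge. Same-numbered arrays of the groups did not deviate together (correlations 0.0026, 0.082 and -0.126), so no pairing was used. Alternatives were an offset of 50, signals floored at 16, median scaling, the authors' value table on a log2 scale, other detection filters, no intensity trend, the methods' t-test, a replicate block, 1 value per gene and each array left out in turn. Those for the lists of regulators were chosen after seeing the data. The paper names a t-test for group comparisons in general, but chose array transcripts of the cell lines by fold change. Running the t-test on each probe, with Benjamini-Hochberg adjustment, was a choice of the re-analysis.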

Additional observations from a re-analysis of the deposited data

How the results depend on the processing

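RAB38 was called under all 15 alternatives, and RAB14 and RAB9B under all that tested them but the methods' t-test. RAB39B lost its call with signals floored at 16, RAB9A and RAB32 with that floor and the t-test. RAB10 lost its call in 8 and RAB4B in 10 of 15. The number of RAB probes higher was 3 with signals floored at 16 and 2 with the methods' t-test (RAB38 and RAB39B), against 6 as reported. RAB39B passed the detection filter through the circANRIL arrays alone. Calls fell over the whole array too, from 1965 higher and 1788 lower as reported. They were 824 and 705 with floored signals, and 281 and 203 with the t-test. The number of RAB probes higher ranged between 5 and 6 when 1 array was left out. The number lower, 2 as reported, was 1 with floored signals, with detection under 0.01 on all 6 arrays, with no filter and with no intensity trend, and 0 with the methods' t-test. At an unadjusted p under 0.05 the t-test gave 4 lower and 7 higher, with no share over all tested probes beside them here. The number lower ranged between 1 and 2 when 1 array was left out, with 1 without vector control replicate 2. Median scaling gave 7 lower and 5 higher, added RAB1B, RAB31, RAB35, RAB40C and RAB6A, and moved the median of all tested probes to -0.13, with 1418 of them higher and 2974 lower, against 1965 and 1788 as reported. The RAB median was then -0.15, against 0.02 as reported. It was 0.11 with 1 value per gene and ranged between -0.0671 and 0.0738 when 1 array was left out, so its sign was not settled. RAB4A, not called, turned to -0.0007 with median scaling and to -0.0133 without circANRIL replicate 1, within a range up to 0.34 (without circANRIL replicate 3). With the replicate number as a block, 5 RAB probes were higher and 3 lower: RAB35 was added and RAB4B lost. The numbers did not pair the samples. The cause of these changes was not tested. Dim probes (RAB39B, RAB14, RAB9B) have differences that move with the treatment of background: RAB9B ranged between 0.43 and 1.46 and RAB14 between -1.39 and -0.37.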
